A study of Mus musculus with 24 samples.

Results

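Untreated bone marrow-derived macrophages of a Hdac9 knockout (KO) were compared with untreated wild-type (WT) macrophages, using the 4 KO and 4 WT libraries out of the 24 libraries of the series and all 14757 genes that passed the filter on low counts. The libraries were chosen by their labels for genotype and treatment, not by measured values. Both groups came from mouse bone marrow cultured with L929-cell-conditioned medium and then left without stimulation; the only label that separates them is the genotype. The labels name neither the strain, age or sex of the mice nor the way Hdac9 was disrupted. An effect of the loss of Hdac9 and any other difference between the KO and WT lines therefore cannot be told apart. Nor do the labels say how many mice stand behind a group, so a p-value here covers the spread among libraries, which may be technical. The other 16 libraries are WT and KO after 6 hours with 100 ng/ml lipopolysaccharide (LPS), and, with and without LPS, a line that lacks a cis-regulatory element (dCIS). They entered the same fit, and their values are given only where they bear on a gene described here.

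Hdac9 encodes a class IIa histone deacetylase. These proteins shuttle between nucleus and cytoplasm, bind the MEF2 transcription factors, have weak catalytic activity of their own, and act largely by bringing corepressors such as NCOR1 to DNA. In macrophages Hdac9 has been studied for its effects on cholesterol efflux, alternative activation and inflammatory signalling, and the inflammasome, which activates caspase-1, is in the title of the series.

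The disrupted gene was checked first. Hdac9 was at 9.14, 12.4, 11.4 and 12.0 CPM (counts scaled by library size and TMM factor) in the 4 WT libraries and at 1.31, 0.883, 0.84 and 1.13 CPM in the 4 KO libraries, which still held 17 to 27 reads of it each. The groups did not overlap, and each KO library lay far below each WT library. The log2 fold change was -3.43 (SE 0.246, adjusted p 1.38e-09, edgeR's quasi-likelihood test with Benjamini-Hochberg adjustment). An exact 2-sided permutation test of log2(CPM + 1) gave p = 0.0286, the smallest that 4 against 4 libraries allow (0.0429 after Benjamini-Hochberg adjustment over 6 such tests).

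The cells carried the defining genes of macrophages in all 8 libraries. Lyz2, which encodes lysozyme, was at 13358 to 15559 CPM, Cd68 at 1744 to 2107 CPM, and Adgre1, which encodes F4/80, at 1673 to 2520 CPM in WT and 2552 to 3006 CPM in KO. Both groups had the RNA of male cells, with Xist at 0 to 0.0989 CPM and the Y-linked Ddx3y at 45.8 to 71.1 CPM. Summed markers of other cells differed in level between the groups: neutrophil markers were at 67.9 to 88.1 CPM in WT and 94.3 to 139 CPM in KO, and fibroblast, osteoblast and endothelial markers at 30.9 to 37.6 and 38.6 to 62.7 CPM. The first sum was almost all Csf3r, with Ly6g at 0 in all 8 libraries, and the second mostly Vwf, with Pdgfra and Col3a1 at 0. Dendritic cell markers were at 243 to 292 CPM in WT and 122 to 225 CPM in KO, nearly all of it Bst2, with Cd209a at 0. Of the tested members of these 3 lists (3, 6 and 4 genes), 1 was called, the dendritic cell factor Batf3, which was lower in KO. Batf3 kept that call in 2 of the 8 fits with 1 library left out (adjusted p up to 0.13, without WT library 2). It was not called with the trend on transcript length, described below, removed. The part of such cells in the gene differences below was not tested. In bulk RNA, fewer cells of a type and less RNA per cell cannot be told apart. Total counts were 15750606 to 16128430 in WT and 15716390 to 19181707 in KO. KO library 2 stood apart from the other KO libraries: a chi-square of its counts against theirs gave 44.5 to 58.6 per degree of freedom, against 12.1 to 23.8 among the other 3.

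The main comparison called 1078 of 14757 genes (7.31%) at an adjusted p under 0.05, of which 742 (5.03% of the tested genes) were higher and 336 (2.28%) lower in KO. Most of these differences were small: the median size of the log2 fold change over the called genes was 0.52, and 117 genes (0.793%) differed by 2-fold or more, 80 of them higher and 37 lower. The libraries of KO and WT did not overlap for 996 of the 1078 called genes, against 21.5% of all tested genes. The count moved strongly with single libraries left out. It was 90 without WT library 2, 126 without WT library 3 and 475 without WT library 1, and 208, 233 and 493 without KO libraries 1, 3 and 4. Without WT library 4 it was 951, and without KO library 2 it was 926. Genes with an unadjusted p below 0.05 in edgeR's test moved less. They numbered 3722 with all libraries, 2756 without WT library 2 and 3772 without WT library 4. With RLE size factors in place of TMM the split was 1129 higher and 292 lower.

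The direction of a difference followed the length of the transcript. Called genes that were higher in KO had a median transcript length of 6388 nucleotides (nt), those that were lower 992 nt, and all tested genes 2553 nt. In the shortest of 10 length bins the median log2 fold change was -0.31, with 0.275% called higher and 5.64% called lower. In the longest bin it was 0.38, with 28.4% called higher and 0.275% called lower. Across 14527 genes with a known length, Spearman's rho between length and log2 fold change was 0.544, and with GC content it was -0.177; genes are not independent replicates, so these are descriptions.

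All 4 KO libraries showed this tilt and no WT library did. The slope of a library's deviation from the mean of the untreated libraries, in log2 units per doubling of length, was 0.120, 0.122, 0.0847 and 0.0921 in KO and -0.035, -0.071, -0.057 and -0.0021 in WT. The groups did not overlap (exact 2-sided permutation p = 0.0286, 0.0429 after Benjamini-Hochberg adjustment over 6 tests). The dCIS libraries lay between -0.190 and 0.055, a range that spans the WT values. After LPS, KO libraries (0.0273 to 0.0794) again lay above WT libraries (-0.123 to -0.026). The dCIS libraries after LPS lay between -0.0546 and 0.0596, with libraries 2 (0.0596) and 4 (0.0302) inside the KO range. RNA encoded by mitochondria took 2.43 ± 0.196% of the counts in KO and 1.91 ± 0.358% in WT (SD, n = 4; exact p = 0.0571), with overlapping libraries. What the tilt stems from was not tested.

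**Figure D1:**
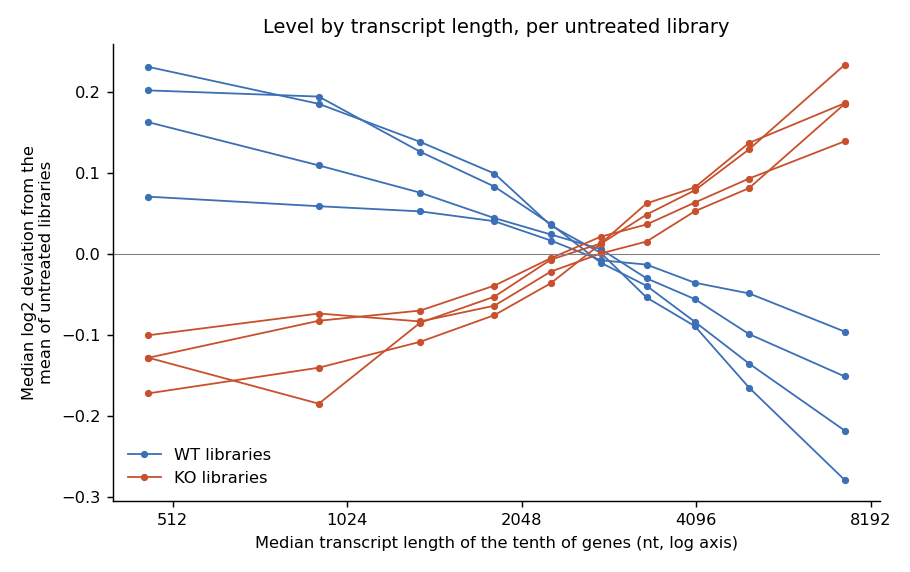
Median log2 deviation of each untreated WT and KO library from the mean of the untreated WT and KO libraries, in 10 bins of the tested genes by transcript length (median length of each bin on a log axis, in nt). WT libraries run from above 0 among short transcripts to below 0 among long ones, and KO libraries the other way; in the shortest bin WT lies at 0.0709 to 0.231 and KO at -0.172 to -0.1.

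A fit in which this trend was removed from each library called 128 genes (0.867%), 75 higher (0.508%) and 53 lower (0.359%). Of these, 115 were among the 1078, which is 10.7% of the first list and 89.8% of the second. Of the 117 genes with a 2-fold difference, 52 kept their call, and of the 961 with a smaller one, 63. Calls that held without each of the 8 libraries in turn numbered 79, and 61 of those (0.413% of the tested genes; 39 higher, 22 lower) held with the length trend removed as well. For 59 of the 61 the KO and WT libraries did not overlap. The groups of genes below are described from both fits.

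**Figure D2:**
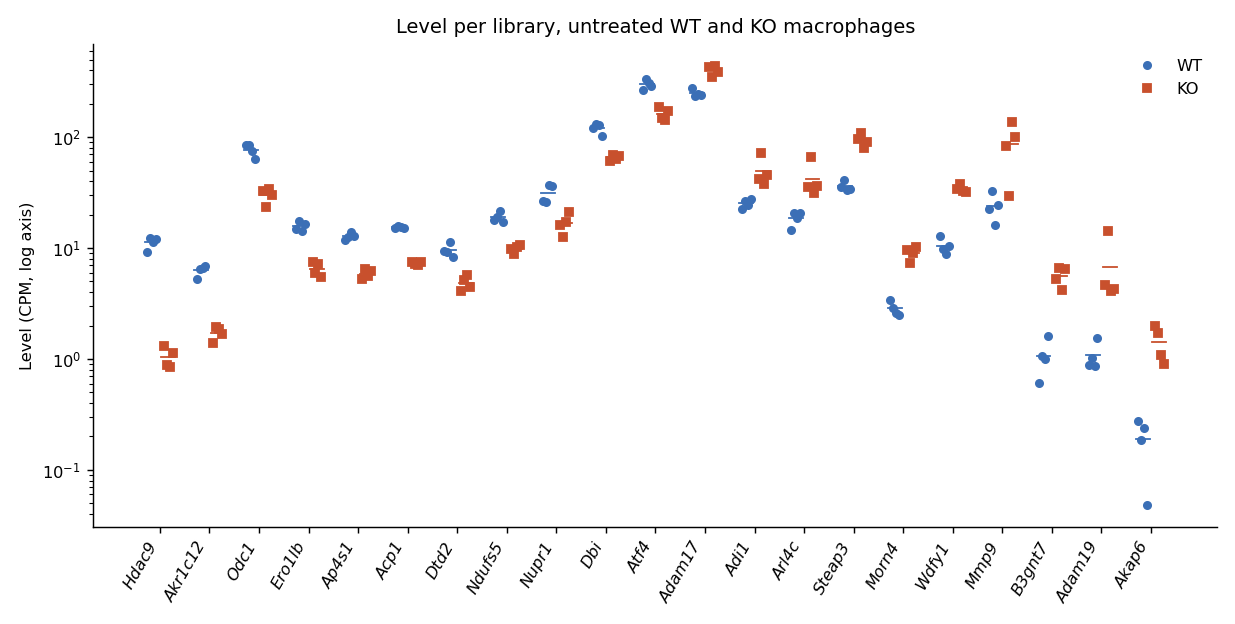
CPM on a log axis in each untreated WT (circles) and KO (squares) library, with bars at the group means, for the 21 genes of the naming rule that were called without each library in turn and with the length trend removed. The 2 groups are apart for each gene except Mmp9, where KO library 2, at 29.4 CPM, lies under the highest WT library, at 32.5 CPM.

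Odc1, a gene of polyamine synthesis, was lower in KO. Odc1 encodes ornithine decarboxylase, the rate-limiting enzyme that makes putrescine from ornithine. It was at 85.4, 84.3, 74.7 and 64.1 CPM in WT and 33.0, 23.5, 34.3 and 30.2 CPM in KO. The groups were far apart, and the log2 fold change of -1.35 (SE 0.156, adjusted p 5.6e-06) became -1.30 with the length trend removed (adjusted p 4.16e-06). It lies on chromosome 12, as does Hdac9, in the window of 40 tested genes next to that of Hdac9, which held 5 calls with the length trend removed. Adi1, an enzyme of the methionine salvage pathway that recycles the by-product of polyamine synthesis, was at 22.5, 26.8, 24.5 and 27.7 CPM in WT and 42.3, 71.9, 38.0 and 45.5 CPM in KO. Every KO library was above every WT library (log2 fold change 0.96, SE 0.161, adjusted p 0.00125; 1.08 with the length trend removed).

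Most other genes of that pathway were not called. Of 20 tested genes of polyamine and methionine salvage, 1 was called higher and 2 lower, against 5.03% and 2.28% of all tested genes, and with the length trend removed 1 and 1. Oaz1, the antizyme that sends ornithine decarboxylase to the proteasome, was at 75.8 to 90.8 CPM in WT and 57.5 to 65.2 CPM in KO (log2 fold change -0.40, adjusted p 0.0444), a call lost with the length trend removed (adjusted p 0.27). The spermidine and spermine synthases Srm and Sms were not called (log2 fold changes -0.34 and -0.21, adjusted p 0.202 and 0.224), nor was the antizyme inhibitor Azin1 (0.10). Sat1, which starts the breakdown of spermidine and spermine, was at 181 to 229 CPM in WT and at 140, 315, 141 and 135 CPM in KO. Only KO library 2 was high, and without it Sat1 was called lower at a log2 fold change of -0.53 (adjusted p 0.0348).

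Genes of the response to amino acid shortage and endoplasmic reticulum stress were among those lower in KO. Atf4 encodes the transcription factor that this response turns on. It was at 265, 333, 307 and 291 CPM in WT and 186, 149, 144 and 172 CPM in KO, with no overlap (log2 fold change -0.87, SE 0.142, adjusted p 0.000887; -0.77 with the length trend removed, adjusted p 0.000856). Ero1lb, an oxidase that forms disulfide bonds in the endoplasmic reticulum, was at 14.3 to 17.7 CPM in WT and 5.44 to 7.45 CPM in KO (log2 fold change -1.28, SE 0.154, adjusted p 1.17e-05). It lies on chromosome 13, in a window of 40 tested genes that held 7 calls with the length trend removed, as described below. Ddit3, a transcription factor of the same response, fell by 0.45 on the log2 scale (adjusted p 0.0369), a call that was lost without any of 6 of the 8 libraries (adjusted p up to 0.114, without WT library 1) and with the length trend removed (adjusted p 0.377). These 3 were the called genes among 24 of endoplasmic reticulum folding and the unfolded protein response, whose median log2 fold change was -0.05, against 2.28% of all tested genes called lower.

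A list of genes known to respond to ATF4 was assembled after the fall of Atf4 had been seen, so it is no independent evidence. Of its 33 tested members 6 were called lower and none higher in KO (2.28% of all tested genes were called lower). An unadjusted p below 0.05 was reached by 16 members, against 3722 of all 14757 tested genes. The median log2 fold change was -0.38, against -0.0007 over all tested genes. With the length trend removed 3 were called lower and the median was -0.33. Without KO library 2 the count was 4, and 1 with the trend removed too. Over the 8 libraries left out in turn it ran from 1 (without WT library 2, WT library 3 or KO library 1) to 5. Nupr1, a small stress-induced nuclear protein, was at 26.6, 25.9, 36.9 and 36.6 CPM in WT and 16.2, 12.6, 17.1 and 21.2 CPM in KO, without overlap (log2 fold change -0.91, adjusted p 0.00818; -0.72 with the length trend removed, adjusted p 0.0477). Pck2, the mitochondrial phosphoenolpyruvate carboxykinase, was at 30.9 to 43.4 CPM in WT and 20.7 to 34.5 CPM in KO with 1 KO library inside the WT range (log2 fold change -0.52, adjusted p 0.0236; -0.71 with the length trend removed, adjusted p 0.0181). Asns, Psat1, Sars and Slc7a11, which make or import amino acids or charge their tRNAs, were not called, with log2 fold changes of -0.43, -0.38, -0.39 and 0.48. Summed over the list, KO lay at 1683 to 2367 CPM and WT at 2327 to 2589 CPM, with KO library 2 the lowest.

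The promoters of called ATF4-responsive genes were searched for the core of the ATF4 response element, TGATGNAA on either strand, in a window of 250 bases before to 50 after the annotated start (RefSeq, GRCm38.p6, not the build of the counts). It was found in 2 of the 5 called genes with a promoter in that table, in 11 of 24 tested members of the list, and in 3.97% of all 32851 promoters. The matches and their flanks are shown, the match in capitals and on the strand opposite to the motif as written, because they are the letters through which ATF4 is known to act on such genes; a match is a description and not a site.
Nupr1, chr7:126625563-126625590, minus strand: aagggccagaTTGCATCAgacagggctt
Pck2, chr14:55540153-55540180, plus strand: gccttcaaagTTACATCAgtatcttaca

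Called genes of iron handling and nucleic acid sensing were higher in KO. Of these, Steap3 and Wdfy1 lie on chromosome 1, which held runs of neighbouring calls described below. Steap3, a ferrireductase of endosomes, was at 35.3, 41.4, 33.7 and 34.2 CPM in WT and 97.1, 108, 79.1 and 89.6 CPM in KO, all far above WT (log2 fold change 1.37, SE 0.144, adjusted p 1.53e-06; 1.14 with the length trend removed). Lcn2, which binds the iron carriers of bacteria, was at 5.47 to 11.9 CPM in WT and 13.9 to 21.0 CPM in KO (log2 fold change 0.87, adjusted p 0.0182; 1.06 with the length trend removed, adjusted p 0.0026). It lost its call without either of 2 of the libraries (adjusted p up to 0.075, without WT library 3). Ireb2, an RNA-binding regulator of iron genes, rose by 0.40 on the log2 scale, but at 0.14 with the length trend removed it was not called. They were the 3 called among 16 iron genes, all higher, against 5.03% of all tested genes; with the length trend removed it was 2 of 16, against 0.508%.

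Wdfy1, an endosomal protein that has been tied to Toll-like receptor signalling, was at 12.9, 9.82, 8.80 and 10.4 CPM in WT and 33.9, 37.9, 32.5 and 32.0 CPM in KO. The KO libraries were close to each other and well above WT (log2 fold change 1.70, SE 0.134, adjusted p 5.81e-09; 1.52 with the length trend removed). Tlr8, a sensor of RNA in endosomes, was at 42.4 to 59.8 CPM in WT and 83.6 to 129 CPM in KO (log2 fold change 1.09, adjusted p 0.0203; 1.01 with the length trend removed, adjusted p 0.0319). It lost its call without either of 2 of the libraries (adjusted p up to 0.0818, without WT library 2). Tlr3, which senses double-stranded RNA, rose by 0.51 and lost its call with the length trend removed (0.35, adjusted p 0.121). Of 30 genes of nucleic acid sensing and Toll-like receptors these 3 were called, all higher, a share not far from the 5.03% of all tested genes; with the length trend removed it was 2 of 30, against 0.508%.

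Proteases of the cell surface and matrix were higher in KO where they were called. Of 30 tested genes of matrix proteases, their inhibitors and adhesion 5 were called higher and none lower, against 5.03% and 2.28% of all tested genes. With the length trend removed it was 3, against 0.508%. Adam17, the protease that releases tumour necrosis factor from the membrane, was at 276, 236, 246 and 240 CPM in WT and 427, 349, 439 and 388 CPM in KO (log2 fold change 0.68, SE 0.115, adjusted p 0.00129; 0.52 with the length trend removed). Adam19, of the same family, was at 0.857 to 1.55 CPM in WT and at 4.69, 14.2, 4.10 and 4.27 CPM in KO, where library 2 stood alone (log2 fold change 2.66; 2.01 without it). Mmp9, a gelatinase, was at 22.6, 32.5, 16.2 and 24.3 CPM in WT and 82.9, 29.4, 136 and 100 CPM in KO (log2 fold change 1.86, SE 0.377, adjusted p 0.0084). Here too library 2 differed from the other KO libraries, and it lay among the WT values. Adamts1, a secreted protease, rose from 0.186 to 0.788 CPM in WT to 1.04 to 3.75 CPM in KO (log2 fold change 1.96, adjusted p 0.0203), a call lost with the length trend removed (adjusted p 0.06).

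Other genes that held across the libraries were scattered in function. Of those named here, Dbi, B3gnt7 and Arl4c lie on chromosome 1, Akr1c12 on chromosome 13 and Cd47 on chromosome 16. Each shared its window of 40 tested genes with other calls, as described below. Akr1c12, an aldo-keto reductase, was at 5.24, 6.51, 6.62 and 6.83 CPM in WT and 1.40, 1.93, 1.88 and 1.69 CPM in KO (log2 fold change -1.86, SE 0.198, adjusted p 1.63e-06). Dbi, which carries long-chain acyl-CoA, was at 103 to 131 CPM in WT and 61.1 to 69.6 CPM in KO, and its transcript of 569 nt falls in the length bin that was lower as a whole; with the trend removed its log2 fold change went from -0.88 to -0.63 (adjusted p 0.000346). Ndufs5, a subunit of respiratory complex I, fell by 0.94 (0.72 with the trend removed). Morn4 rose from 2.47 to 3.43 CPM in WT to 7.39 to 10.3 CPM in KO (log2 fold change 1.67). B3gnt7, a glycosyltransferase, was at 0.603 to 1.60 CPM in WT and 4.20 to 6.66 CPM in KO (log2 fold change 2.40, SE 0.373), and Arl4c, a small GTPase, was at 14.5 to 20.9 and 31.4 to 65.7 CPM (1.18). Cd47, whose protein inhibits engulfment of the cell that bears it, was chosen after its values had been seen: it was at 240 to 261 CPM in WT and 417 to 485 CPM in KO (log2 fold change 0.79, adjusted p 3.66e-06).

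Nlrp3, Casp1, Pycard, Gsdmd, Il1b and Il18, genes of the NLRP3 inflammasome and its substrates, did not pass the test without LPS. Il1b was at 5.33, 1.4, 3.33 and 1.89 CPM in WT and 2.71, 1.73, 5.88 and 1.83 CPM in KO (log2 fold change 0.00, SE 0.437, adjusted p 0.998), and the groups overlapped almost fully. Nlrp3, the sensor subunit, had a log2 fold change of 0.00 (SE 0.164), the protease gene Casp1 -0.04 (SE 0.0978), the adaptor gene Pycard -0.16 (SE 0.131), the pore-forming Gsdmd -0.17 (SE 0.107) and Il18 -0.25 (SE 0.123). None of these passed the test (adjusted p 0.205 to 0.999). Of 24 genes of the inflammasome and the interleukin-1 family 2 were called higher, the sensors of bacterial proteins Naip2 and Naip6 (log2 fold changes 0.40 and 0.76), against 5.03% of all tested genes, and 0 with the length trend removed. Naip2 lost its call whichever of the 8 libraries was left out, and Naip6 kept it in 2 of those 8 fits. Both are close paralogs with long transcripts, of 4823 and 6827 nt, and counting could split reads between them. None of 30 cytokine and chemokine genes and none of 23 NF-kB genes was called, although 2 and 4 of them had an unadjusted p below 0.05. That p was reached by 3722 of all 14757 tested genes. DESeq2 called 0 cytokine genes and 2 NF-kB genes.

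Interferon-responsive genes were higher in KO where they were called. Of 45 tested genes of the type I interferon response 5 were called higher and none lower, against 5.03% and 2.28% of all tested genes. The median log2 fold change was 0.23 (0.18 with the length trend removed), against -0.0007 over all tested genes, and 38 members were above 0. With the trend removed 1 member was called, against 0.508% of all genes called higher; it was Ifi27l2a, which the first fit had not called. Parp14, a mono-ADP-ribosyltransferase, was at 143, 134, 133 and 170 CPM in WT and 249, 205, 287 and 209 CPM in KO (log2 fold change 0.71, SE 0.133, adjusted p 0.00468). It kept its call without each library, but with the length trend removed the log2 fold change of 0.37 was not called (adjusted p 0.138). Gbp7, a guanylate-binding protein, was at 7.00 to 10.2 CPM in WT and 13.9, 16.6, 20.2 and 9.61 CPM in KO, where library 4 lay among the WT values. Ddx58, which encodes the RNA sensor RIG-I, was at 55.8 to 74.0 CPM in WT and 72.0 to 102 CPM in KO, and Cmpk2, a mitochondrial nucleotide kinase, at 26.9 to 31.0 and 30.0 to 65.3 CPM; both overlapped. The count of 5 rested on single libraries: it was 1 without WT library 2, WT library 3 or KO library 3, and 9 without KO library 2.

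The promoter windows of the called interferon genes were searched for GAAANNGAAA, the half-sites of the interferon-stimulated response element, on either strand. It was found in 2 of the 3 called genes with a promoter in the table, in 21 of 33 tested members of the list and in 3.44% of all promoters. The matches are shown because this element is how interferon is known to act on such genes, with the match in capitals on the strand opposite to the motif as written.
Gbp7, chr3:142530273-142530302, plus strand: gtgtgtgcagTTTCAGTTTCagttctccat
Ddx58, chr4:40239804-40239833, minus strand: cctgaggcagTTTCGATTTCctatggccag

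Partners of the class IIa deacetylases and genes of cholesterol handling were called in part, and each such call was lost with the length trend removed, except that of Hdac9 itself. Hdac4, another class IIa deacetylase, was at 13.3, 11.9, 12.6 and 12.6 CPM in WT and 19.4, 13.9, 18.7 and 20.2 CPM in KO (log2 fold change 0.52, adjusted p 0.0393). With the length trend removed it was at 0.15 (adjusted p 0.639; its transcript has 8100 nt), and the call was lost without any of 7 of the 8 libraries. Hdac5 and Hdac7 were not called (0.30 and 0.13). The corepressor gene Ncor1, with a transcript of 9037 nt, was at 100 to 114 CPM in WT and 154 to 174 CPM in KO. Its log2 fold change of 0.62 (adjusted p 0.0107) became 0.22 with the length trend removed (adjusted p 0.184). Mef2a, Mef2c and Mef2d had log2 fold changes of 0.38, 0.40 and 0.28 and were not called (adjusted p 0.0792 to 0.104), though their KO libraries all lay above the WT libraries, as did 21.5% of all tested genes in one direction or the other.

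Abca1, the transporter that loads cholesterol onto apolipoprotein A-I, was at 144, 132, 154 and 199 CPM in WT and 254, 474, 222 and 219 CPM in KO. The called log2 fold change of 0.89 (adjusted p 0.0478) was 0.56 without KO library 2 (adjusted p 0.19) and 0.46 with the length trend removed (adjusted p 0.3). Abcg1, a transporter to larger lipoproteins, was not called at 0.59 (adjusted p 0.114), and 0.19 without KO library 2. Of 28 genes of cholesterol efflux and lipid uptake 3 were called higher and 1 lower, a larger share than the 7.31% of all tested genes. Of 22 of cholesterol synthesis 0 were called higher and 2 lower, a share near 7.31%. With the length trend removed 0 of either list was called. An unadjusted p below 0.05 had been reached by 11 and 3 members, against 3722 of all 14757 tested genes. Lrp1, a large endocytic receptor, was at 1028 ± 69.8 CPM in WT and 1699 ± 144 CPM in KO (SD, n = 4), with a transcript of 14888 nt and a log2 fold change that went from 0.73 (adjusted p 0.0157) to 0.20 (adjusted p 0.296). Fabp4, a fatty acid carrier with a transcript of 896 nt, was the 1 that was lower (log2 fold change -0.49, adjusted p 0.0153). Pparg was at a log2 fold change of 0.03 (SE 0.162), and none of 11 genes of alternative activation was called or had an unadjusted p below 0.05. Of 32 cell cycle genes none was called, but 29 had a log2 fold change under 0 (median -0.28, and -0.31 with the length trend removed). An unadjusted p below 0.05 was reached by 7, against 3722 of all 14757 tested genes. DESeq2 called 2 of the cell cycle genes lower. None of 20 glycolysis genes was called or reached that p, and DESeq2 called 0.

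**Figure D3:**
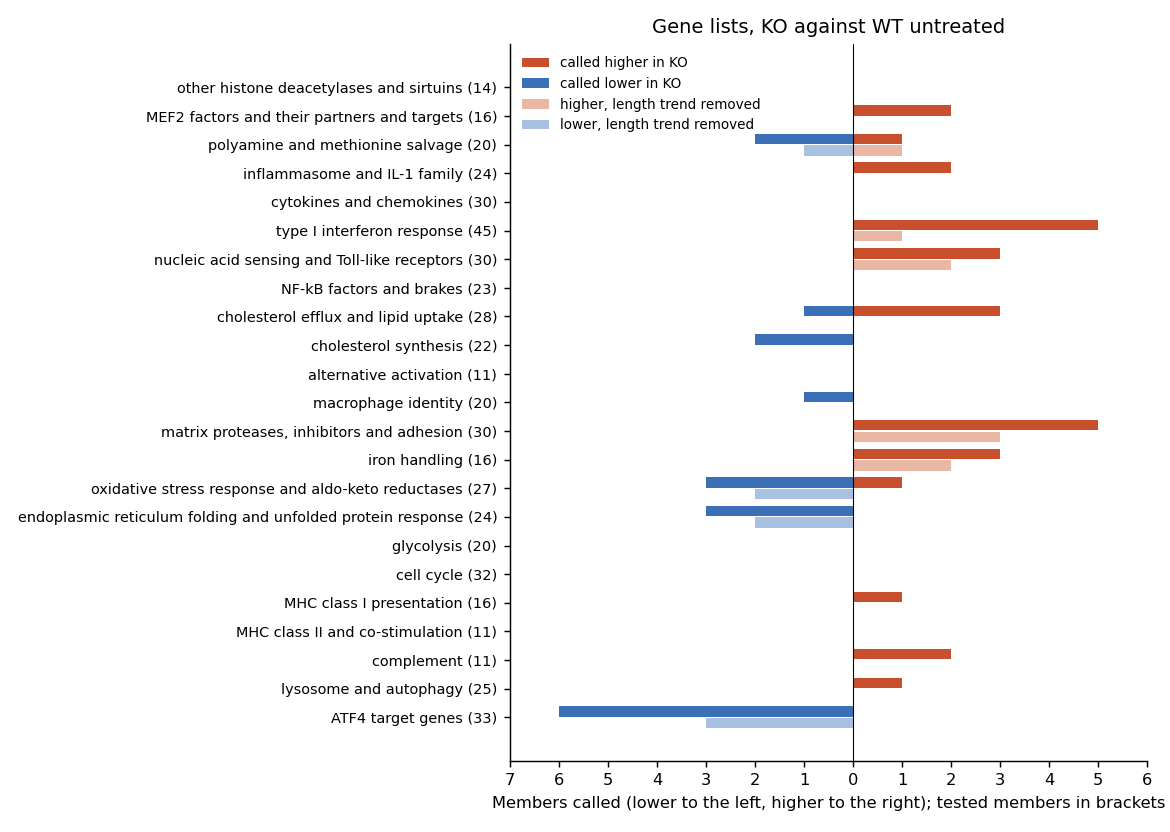
Members called lower (left) and higher (right) in KO for each list with at least 10 tested genes, dark bars with all calls and light bars with the length trend removed; tested members stand in brackets. Rises outnumber falls for interferon, matrix and iron genes, falls for the added list of ATF4 target genes, and most bars shorten or vanish with the trend removed.

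The called genes were also placed in order along the chromosomes. Gene order was taken from GRCm38, which is not the build of the counts, and no coordinates are given. Hdac9 lies on chromosome 12, with 111 tested genes before it and 402 after it. Among the 80 tested genes nearest to it in order, 15 were called (18.8%, against 7.31% of all) and 7 with the length trend removed (8.75%, against 0.867%). These 7 were Adam17, Adi1, Acp1 and Atxn7l1 before it and Ap4s1, Dtd2 and Akap6 after it. Acp1, a phosphotyrosine phosphatase, was at 15.1 to 15.9 CPM in WT and 7.07 to 7.55 CPM in KO, with little spread in either group (log2 fold change -1.07, SE 0.109). Ap4s1, a subunit of the adaptor complex AP-4, was at 11.8 to 13.9 and 5.27 to 6.42 CPM, and Dtd2, which removes D-amino acids from tRNA, at 8.33 to 11.3 and 4.06 to 5.69 CPM. Akap6, a kinase anchor protein, was at 0.0484 to 0.278 CPM in WT and 0.891 to 1.98 CPM in KO.

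Other chromosomes held such runs as well. The genes and chromosomes named here were chosen after their values had been seen, and none of this was tested. Of the 61 genes that held, 36 (59%) lay on chromosomes 1, 12, 13 and 16, which carry 16.6% of the tested genes. Because these chromosomes were picked with the calls known, the 2 shares are no independent comparison. Chromosome 19, not among them, held 4 of the 61 (0.774% of its tested genes), and chromosome 16 held 3 (0.673%). Of 374 windows of 40 neighbouring tested genes, 294 held no call with the length trend removed, 58 held 1, 13 held 2 and 9 held 3 or more. The first window of chromosome 13 held 7, namely Akr1c12, Akr1e1, Dip2c, Lgals8, Ero1lb, Gm18562 and Gpr137b, and the second held Gpr141b. On chromosome 1, window 10 held 6, among them B3gnt7 and members of the Ugt1a cluster, and window 11 held 4, among them Arl4c. Wdfy1 lay in window 9 and Dbi and Steap3 in window 13, each with 2. Window 8 of chromosome 16 held 5, among them Cd47 and Cd200, the ligand of an inhibitory receptor of myeloid cells.

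Some of these genes were present in one genotype and nearly absent from the other. Ugt1a8, on chromosome 1, had 0 reads in all 4 WT libraries and 1.26, 2.13, 1.78 and 1.69 CPM in KO, at least 48.9-fold higher against a floor of 3 reads over the group. Glrp1 stands near it in order and went the other way, from 2.37, 2.51, 3.43 and 2.90 CPM in WT to 0, 0.0803, 0.0989 and 0 CPM in KO. Zfp125, on chromosome 12, was at 1.26 to 1.5 CPM in WT and had 0 reads in KO, at least 39.8-fold lower. Gpr141b had 0 reads in WT and 0.435 to 0.643 CPM in KO, at least 15.2-fold higher, while its neighbour in name, Gpr141, was at 11.7 and 10.5 CPM on average and was not called. The dCIS libraries stood with WT here: Ugt1a8 had 0 CPM in all 4, Glrp1 1.5 to 2.75 CPM and Zfp125 1.19 to 1.78 CPM. Genes of the Ugt1a cluster share exons, so reads can be split between them, and antisense or overlapping genes could not be separated where the counting did not use strand.

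**Figure D4:**
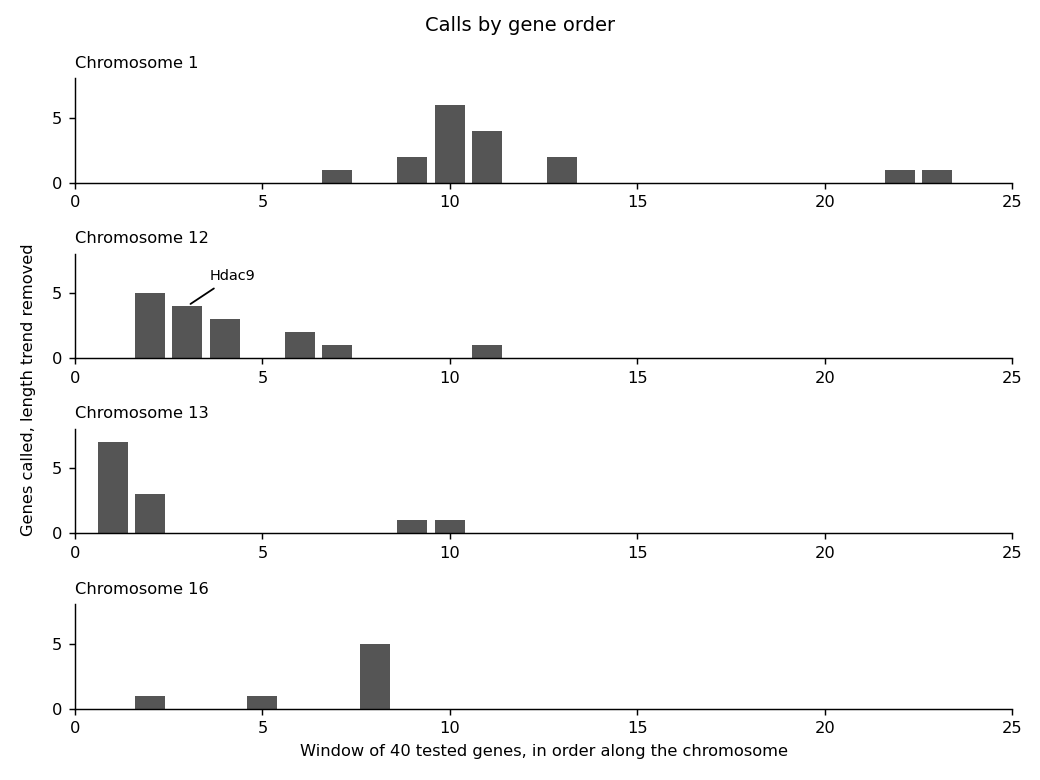
Number of genes called with the length trend removed in each window of 40 tested genes, in order along chromosomes 1, 12, 13 and 16. These chromosomes were chosen after the calls had been seen. Calls gather in a few adjacent windows, with up to 7 in the first window of chromosome 13, while most windows are at 0.

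The same genotypes were then compared after LPS. The LPS libraries are other libraries than the untreated ones, but they entered the same filter and fit, so the 2 comparisons share 1 estimate of the spread. The labels do not say whether untreated and LPS libraries of the same number share a mouse or culture. Mmp9 was lowest in library 2 of both KO groups (29.4 and 40.2 CPM), while Arl4c was highest in library 2 of untreated KO only. Agreement between the 2 comparisons may thus not be independent, which was not tested. That comparison called 405 genes (2.74%), with 202, 100 and 68 without WT LPS libraries 1, 2 and 3 and 91, 215 and 109 without KO LPS libraries 1, 2 and 3. Without library 4 of WT LPS it called 455, and without library 4 of KO LPS 278. Of the 405, 267 were also called untreated, 24.8% of the untreated calls and 65.9% of the LPS calls; all 267 had the same direction. With the length trend removed, 107 genes were called after LPS (0.725%), and 55 were shared, all in the same direction. Of the 61 genes that held, 47 were called after LPS, all 47 in the same direction. Hdac9 was at 10.4 to 16.5 CPM in WT and 0.0897 to 0.463 CPM in KO after LPS. Odc1 had a log2 fold change of -1.81 there (adjusted p 3.66e-08), Steap3 2.06, Wdfy1 1.51, Akr1c12 -2.30 and Adam17 0.49 (adjusted p 0.0248). Atf4, Nupr1 and Lcn2 were not called after LPS (log2 fold changes -0.30, -0.46 and -0.21).

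The difference of the KO effect between LPS and untreated cells was called for 3 genes (0.0203%), while 258 had an unadjusted p below 0.05, and all 3 lie on chromosome 12. Adi1, higher in KO without LPS, was higher still after it (log2 fold changes 0.96 and 2.43; difference 1.47, adjusted p 0.016). That call was lost without any one of WT library 4, KO libraries 1 and 4, WT LPS libraries 1, 2 and 3, and KO LPS library 2. Nol10, a nucleolar protein, did not separate the untreated groups (16.8 to 24.3 CPM in WT, 16.4 to 21.9 CPM in KO; log2 fold change -0.06) and was higher in KO after LPS (1.26; difference 1.31, adjusted p 0.00073). Rnf144a, a ubiquitin ligase, was at 0.512 to 1.07 CPM in untreated WT and 0.742 to 1.22 CPM in untreated KO, and after LPS was lower in KO (-2.87; difference -3.26, adjusted p 0.0029). A gene without a call in this test is not shown to respond alike in both states.

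**Figure D5:**
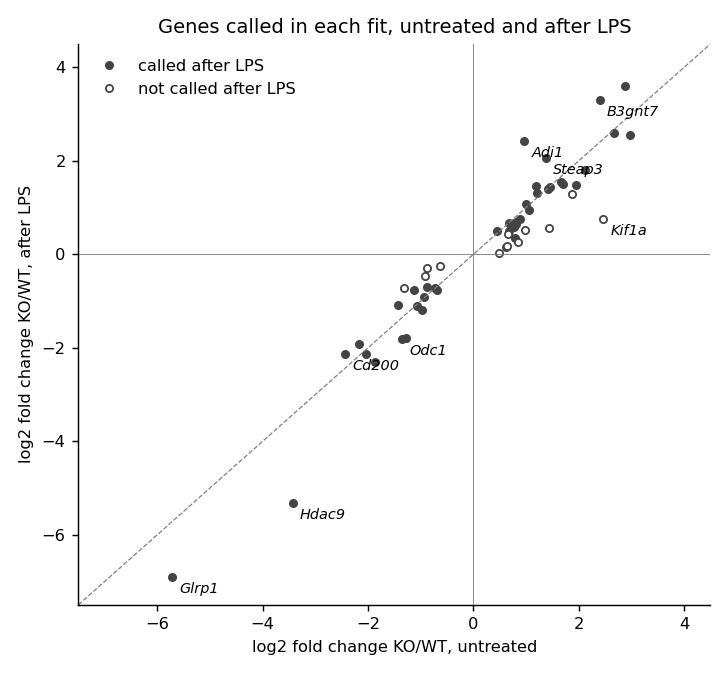
Log2 fold change of KO against WT untreated (horizontal) and after LPS (vertical) for the 54 of the 61 genes that had more than 3 reads in each untreated group; the dashed line marks equal values, and open circles were not called after LPS. The points lie in the lower left and upper right quadrants, with Hdac9 at -3.43 and -5.32, and Adi1 above the line.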

How the data were processed

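RNA of 24 cultures of mouse bone marrow-derived macrophages was captured on oligo-dT beads and sequenced as 60-nucleotide read pairs, per the labels' protocols. The authors deposited 1 table of raw counts per gene and library, not normalized. The submitters' processing notes name STAR, edgeR and the mm39 build; versions, counting program and use of strand: not given in the sources used here. Counts were tested with edgeR 4.0.16 in R 4.3.3: genes kept by filterByExpr (minimum count 10, minimum total 15), TMM factors, 1 quasi-likelihood fit of all 24 libraries with a mean per group, and Benjamini-Hochberg adjustment over 14757 genes, with a call at an adjusted p under 0.05. The procedure was tested on simulated data. Total counts of 14636058 to 19181707 per library limit the precision for genes of a few CPM.

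Of the deposited IDs 91.2% had a symbol in the gene table; reads of IDs without one made up 0.562 to 3.44% of a library. The length trend was removed, as an alternative chosen after seeing the data, by a loess offset per library (span 0.5) of the deviation from the mean of the libraries of its treatment against log2 transcript length (GENCODE, GRCm38). Other alternatives were RLE factors, no filter, a stricter filter, a replicate block, a fit of the compared groups only, DESeq2 1.42.0, and each library left out.

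Genes were named by rule: Hdac9; the largest called rises and falls (up to 12 each) that averaged 5 CPM or more in whichever group was higher and whose libraries did not overlap; up to 4 called members per list by p; called genes among the 40 tested genes on each side of Hdac9; a panel of 17 genes; the polyamine list; and genes whose effect differed after LPS. Others (Cd47, Pck2, Cars, Asns, Psat1, Sars, Slc7a11, Chac1, Trib3, Atf5, Ifi27l2a, Gpr141, marker genes and those of the section on gene order) were named after their values were seen. The comparison and all lists were chosen with earlier results of these data known, and the ATF4 list after seeing the values here. No list was tested as a set. Some results on single genes are not reported here.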

Additional observations from a re-analysis of the deposited data

Results flagged for a closer look

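Within each group of 4 libraries, the levels of the named genes and 4 measures of the whole library were checked for 1 library far from the other 3 by Dixon's ratio at its 95% critical value, and 30 of 416 sets of 4 values had one, all of them levels of genes. Chance gives about 1 in 20. KO library 2 held 9 of the 10 in untreated KO. It was high for Sat1 (315 CPM, others 135 to 141), Abca1 (474, others 219 to 254), Abcg1 (154, others 61.8 to 73.4), Arl4c (65.7, others 31.4 to 36.6), Adam19 (14.2, others 4.1 to 4.69), Ddit3 (59.3, others 42.2 to 44.5) and Smox (17.8, others 15 to 15.4). It was low for Amd1 (12.5 CPM, others 19.6 to 20.9) and Tnfrsf11a (81.3, others 98.1 to 101). In KO library 4 Naip6 was low (14.6 CPM, others 18.8 to 19.7).

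In untreated WT, library 1 was high for Tnf (169 CPM, others 101) and Nlrp3 (81.7, others 52 to 54). Library 2 was high for Batf3 (9.86 CPM, others 8.04 to 8.18) and low for Uty (10, others 12.6 to 12.8). Library 4 was low for Srm (41.2 CPM, others 49.4 to 50.7) and Mtap (38.1, others 43.9 to 44.7), and high for Ddx58 (74, others 55.8 to 58.9) and Gbp7 (10.2, others 7 to 7.47).

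After LPS, WT library 1 stood apart for Ap4s1 (7.92 CPM), Nol10 (37.9) and Cog5 (15.9), WT library 2 for Hdac9 (16.5) and B3gnt7 (0.388), and WT library 4 for Cebpb (391) and Mat2a (127). KO library 1 stood apart for Amd1 (5.19 CPM) and Lrp1 (1190), KO library 2 for Tnf (2370) and Abcg1 (248), and KO library 4 for Mitf (192).

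The KO effect differed between LPS and untreated cells, by the interaction test of edgeR, for Adi1 (log2 difference 1.47), Nol10 (1.31) and Rnf144a (-3.26). Causes were not tested.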

How the results depend on the processing

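No gene called untreated both in the main fit and under another setting changed sign between them. No call of a named gene was reversed under any setting. For other calls that were lost under a setting, the sign was not compared. Among named genes that were not called, some near 0, such as Il1b, Tnf, Nlrp3, Casp1 and Nol10, had either sign when 1 library was left out. Across settings the median log2 fold change of all genes moved by 0.04 at most. Hdac9 kept its call under each, at -3.55 to -3.35 with 1 library left out. The number of called genes did not hold. Without 1 library it ran from 90 to 951 untreated (62 to 643 higher, 28 to 308 lower), from 68 to 455 after LPS (42 to 376 higher, 26 to 79 lower), and from 2 to 4 for the difference between treatments.

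DESeq2 called 2097 genes untreated (1592 higher, 505 lower), 1069 after LPS (818 and 251) and 6 for the difference. A fit of the compared groups only called 2351 (1382 and 969) and 1993 (1204 and 789). With no filter, 523 were lower untreated, 1038 were called after LPS (801 and 237) and 12 for the difference. RLE factors called 1129 higher. The replicate block called 1973 (1277 and 696), which include all 1078, and 1058 after LPS (803 and 255). Deviations of same-numbered untreated WT and KO libraries correlated at 0.16, 0.00249, 0.0676 and -0.0603, and not every library correlated best with its own number. Whether the numbers pair the libraries cannot be told from these few weak correlations. Untreated and LPS libraries of the same number were not compared in this way.

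With the length trend removed 128 genes were called (75 and 53), and 107 after LPS (66 and 41), with 8.75% called near Hdac9 and 3.11% on its chromosome. With length and GC removed these were 140 (79 and 61) and 106 (65 and 41); with length removed and KO library 2 left out, 200 (136 and 64). Of 101 named genes, 45 lost their call with the length trend removed, 45 without WT library 2 and 42 without WT library 3. The 101 include genes of the panel and the polyamine list that had no call to lose. The share lost among the called genes was therefore larger. The cause was not tested. Genes under about 1 CPM rest on few reads per library, and read depth gives no protection against a difference between lines that the labels do not record.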

Other observations

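C3, the central component of the complement cascade, was at 110, 64.6, 90.5 and 94.2 CPM in WT and 140, 116, 190 and 209 CPM in KO (log2 fold change 0.86, adjusted p 0.0203, edgeR), without overlap. The call was lost with the length trend removed (adjusted p 0.101).

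Some other genes named for their rise were not called with the length trend removed. Fat3, a giant cadherin, was at 14.5 to 16.5 CPM in WT and 26.5 to 41 CPM in KO (log2 fold change 1.09, then 0.52 with adjusted p 0.151), with a transcript of 18760 nt. Cacna1a, a calcium channel subunit, was at 6.98 to 11.8 and 14.8 to 25.8 CPM (1.18, then 0.83 with adjusted p 0.0534). Rab4a, a GTPase of early endosomes with a short transcript of 1419 nt, went the same way, from 2.69 to 4 CPM in WT to 7.91 to 9.05 CPM in KO (1.35, then 1.49 with adjusted p 0.0535), and was higher after LPS as well (2.55, adjusted p 0.0356).

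The transcription factor genes Cebpb and Mitf moved in opposite directions. Cebpb was at 118 to 132 CPM in WT and 75.7 to 93.4 CPM in KO (log2 fold change -0.55, adjusted p 0.0239), and Mitf, which drives lysosomal genes, at 66.8 to 71.7 and 85.4 to 100 CPM (0.46, adjusted p 0.0191). Neither was called with the length trend removed (adjusted p 0.0996 and 0.113).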
